A study of Junonia coenia with 38 samples.

Results

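In the developing wings of the buckeye butterfly Junonia coenia, 242 of 19234 gene models (1.26%) were high at 2 separate stages, the prepupa and the late pupa, and low at the stage before each of them. They were chosen on measured values. N is a model's read count divided by its library's size factor, the DESeq median-of-ratios factor over the 24 wing libraries, and a stage mean is the mean N of the 6 libraries of a stage. A member had prepupal and late pupal means that were both at least 50, at least 4 times the higher of the 5th instar and 72 h means, and within 4-fold of each other. Stage levels of the members are therefore a description and carry no test. The choice averaged both wings, so it fixed no direction of a wing difference, and hindwing and forewing were compared by test. A member could still pass through high values in a single wing, and for such members the choice itself favours a wing difference at that stage. The models carry no gene names in the table used here, so a model is called by the contig it lies on and the bases between which it runs, counted from 1, and no role is given to any of them.

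Poly-A RNA of whole wings was sequenced, and 24 wing libraries with counts were used. Hindwings and forewings were each sampled at 4 times, in 5th instar caterpillars, in prepupae, in pupae of 72 h and in late pupae, in 8 groups of 3 libraries. One label puts the last of these stages at 6 days after pupation and another at day 7. No genotype, treatment or sex is given for the wing libraries, all animals were kept at about 27 degrees C, and the labels do not say whether the libraries of a group came from different animals, so the p-values below measure the spread between these libraries. The wing label was not checked against marker genes, since those need gene names.

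A butterfly wing grows as an epithelial disc inside the last-instar caterpillar. The prepupa is the short non-feeding phase before the pupal moult, in which the disc everts and its epithelium secretes the cuticle of the pupal wing. Later in the pupa the epithelium forms scales, secretes adult cuticle and deposits pigment, and pulses of the moulting hormone 20-hydroxyecdysone time both moults. Hindwing identity in insects depends on the homeotic gene Ultrabithorax.

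Total counts per library ran from 8678215 to 21284939 at the 5th instar, from 9282023 to 15256236 in prepupae, from 5795618 to 13355152 at 72 h and from 8316939 to 12775785 in late pupae. The members took 1.19% ± 0.0776 of all counts in hindwings and 1.10% ± 0.0871 in forewings at the 5th instar (mean ± SD, n = 3 libraries here and below). In prepupae they took 10.03% ± 1.26 in hindwings and 8.66% ± 1.28 in forewings. At 72 h the share was 0.419% ± 0.0311 in hindwings and 0.540% ± 0.123 in forewings, and in late pupae it was 9.91% ± 0.399 in hindwings and 9.68% ± 0.741 in forewings. Since RNA of whole wings was pooled over its cells, fewer cells of a type and less RNA per cell cannot be told apart in any of these values.

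Across the 242 members the stage mean N had a median of 18.9 at the 5th instar, 798 in prepupae, 22.9 at 72 h and 787 in late pupae. Prepupal means ran from 54.1 to 196946 and late pupal means from 53.3 to 165823. The 5th instar means ran from 0.0656 to 16777, and the 72 h means from 0 to 11293. The ratio of the lower high mean to the higher low mean, with the low mean set to at least 1, had a median of 11.9 and quartiles of 6.44 and 43.2. It was at least 8 in 158 members, at least 16 in 104, at least 32 in 74 and at least 64 in 45. The pattern was present library by library. In 217 of the 242 members all 12 prepupal and late pupal libraries lay above all 12 larval and 72 h libraries, as they did in 3.49% of the models with a count, a measure the choice itself makes likely. In the other 25 members the high and low libraries overlapped.

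**Figure D1:**
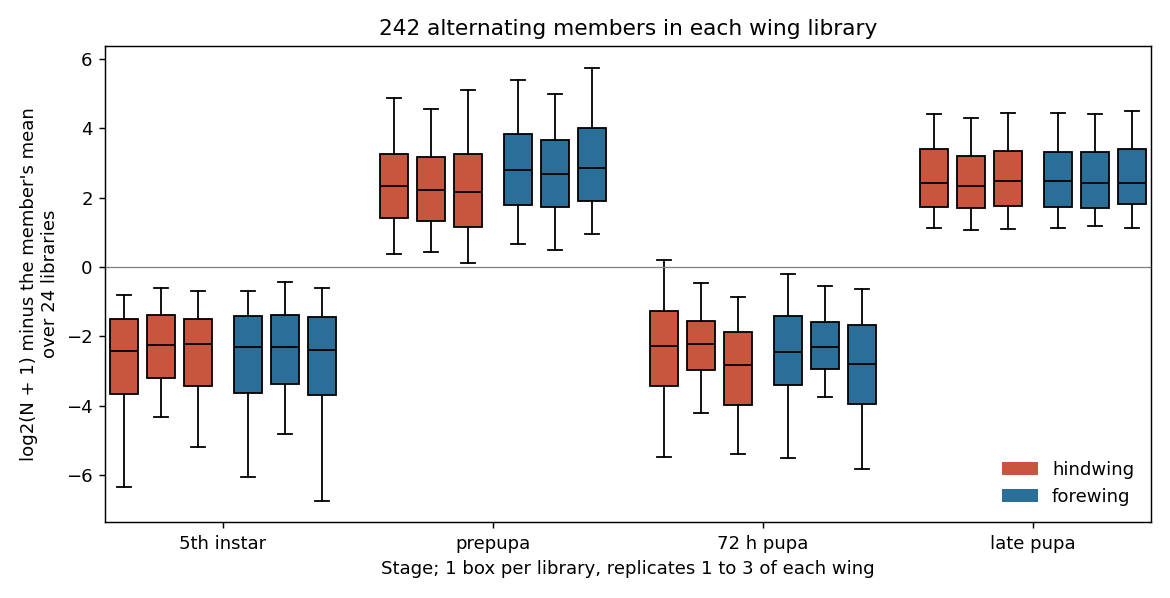
Distribution over the 242 members of log2(N + 1) minus the member's mean over 24 libraries, 1 box per library by stage and wing (line: median, box: quartiles, whiskers: 5th and 95th percentiles). Every prepupal and late pupal library has its median above 0 and every 5th instar and 72 h library below it, since the members were chosen for this.

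The plot of the members by library shows library medians of the high stages apart from those of the low stages in every replicate. It also shows a longer box tail in the low stages, where many members were near the floor of detection. The median SD of log2(N + 1) among 3 replicates was 0.399 in hindwings and 0.335 in forewings at the 5th instar, and 0.484 in hindwings and 0.420 in forewings in prepupae. It was 0.909 in hindwings and 0.771 in forewings at 72 h, and 0.325 in hindwings and 0.291 in forewings in late pupae. For other models with a mean of at least 50 in a group, this median lay between 0.163 and 0.371 over the 8 groups. At 72 h, replicate 3 had the lowest median deviation of the members from their group mean in both wings. On the log2 scale this deviation was -0.34 in the hindwing and -0.24 in the forewing. The members' share of all counts was nevertheless highest in replicate 3 of each wing at 72 h, with 0.455% in the hindwing and 0.681% in the forewing.

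The members with the most reads kept high counts in prepupae and late pupae in every library. N is not divided by model length, so these values rank reads and not expression between models. Model 000292F:228176-245171 had the most. Its lowest, median and highest N over 6 libraries were 4414, 5612 and 6734 at the 5th instar, 113004, 212463 and 297905 in prepupae, 245, 600.5 and 976 at 72 h and 142850, 166350 and 202214 in late pupae. Its 2 low stages thus differed, with every 72 h library below every 5th instar library. On the same contig, model 000292F:200277-210050 had 2287, 3051 and 3634 at the 5th instar, 33084, 50598 and 65602 in prepupae, 5227, 5689.7 and 7014 at 72 h and 29122, 32761 and 38626 in late pupae. Here every 72 h library lay above every 5th instar library, so the neighbours on this contig differed in which low stage was lower.

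Model 000795F:15479-25256 was less low between its high stages, with 7689, 10159 and 19509.5 at 72 h after 73807, 112741 and 140574 in prepupae, and 13259, 16638 and 20534 at the 5th instar and 81235, 93238 and 102652 in late pupae. Model 000044F:1628004-1651505 was similar, with 7877, 8393 and 9656 at the 5th instar, 28646, 37679 and 48166 in prepupae, 1903, 3094 and 3713 at 72 h and 46007, 54152 and 72487 in late pupae. The ratio of the lower high mean to the higher low mean was 5.53 and 4.48 for these models, close to the limit of 4. Model 000163F:505284-511570 had 2133, 2502 and 2693 at the 5th instar, 18216, 25513 and 27702 in prepupae, 233, 528 and 856 at 72 h and 29884, 37778 and 42999 in late pupae. Its replicates were tight at the 5th instar and in late pupae, and every late pupal library was above every prepupal one.

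The other 3 of the 8 with the most reads were low at both low stages and varied widely in prepupae. Model 000055F:1317914-1320466 had 8.95, 68.4 and 123 at the 5th instar, 21158, 68786 and 189535 in prepupae, 31.8, 311 and 3038 at 72 h and 54088, 76180.5 and 83636 in late pupae. Model 000160F:521464-530252 had 9.52, 49.2 and 166 at the 5th instar, 14342, 51719 and 148855 in prepupae, 171, 872 and 995 at 72 h and 79255, 101982 and 111416 in late pupae. In both, the prepupal range split by wing: all 3 hindwing libraries were below all 3 forewing libraries. Model 000008F:3321793-3326117 had 173, 507 and 813 at the 5th instar, 10988, 31973 and 63911 in prepupae, 18.9, 271 and 505 at 72 h and 15423, 28519 and 45171 in late pupae, and its prepupal split ran the other way. The 10 members with the highest mean N at a stage, picked separately for each stage, held 48.3% of the members' summed mean N in prepupae and 54.3% in late pupae.

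The members with the highest ratio were near 0 at both low stages. Model 000074F:245363-245728, with a span of 366 bases, had a ratio of 916. It had 0, 0.975 and 2.36 at the 5th instar, 536, 2578 and 14352 in prepupae, 0, 1.99 and 5.40 at 72 h and 1833, 2162 and 2460.1 in late pupae. Model 000074F:269088-281509, further along the same contig, had a ratio of 555 and 0.866, 9.44 and 16.4 at the 5th instar, 3782, 16839 and 73217 in prepupae, 3.15, 8.14 and 44.96 at 72 h and 8939, 9971 and 12225 in late pupae. Both had prepupal libraries that spread far wider than their late pupal ones.

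Model 000206F:52781-56031 had a ratio of 701, and its mean N was 4.58 at the 5th instar, 6464 in prepupae, 9.22 at 72 h and 15740.2 in late pupae. Model 000224F:180711-188761 had a ratio of 655 and means of 2.15, 2828, 4.32 and 5668 at the 4 stages in turn. Model 000010F:3435250-3442563 had a ratio of 406 and means of 4.69, 2689, 3.55 and 1903. These models rested on a few reads per library at the low stages, so their ratios are loose. Model 000481F:78469-87560 had a ratio of 286, with 729, 135 and 87.9 in the prepupal hindwings and 849, 153 and 123 in the prepupal forewings, and replicate 1 was the high one in both wings. It had no read in any hindwing library at 72 h, and in forewings at 72 h N was 0, 5.40 and 0. It was 1 of 6 members with a mean below 1 at both low stages.

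**Figure D2:**
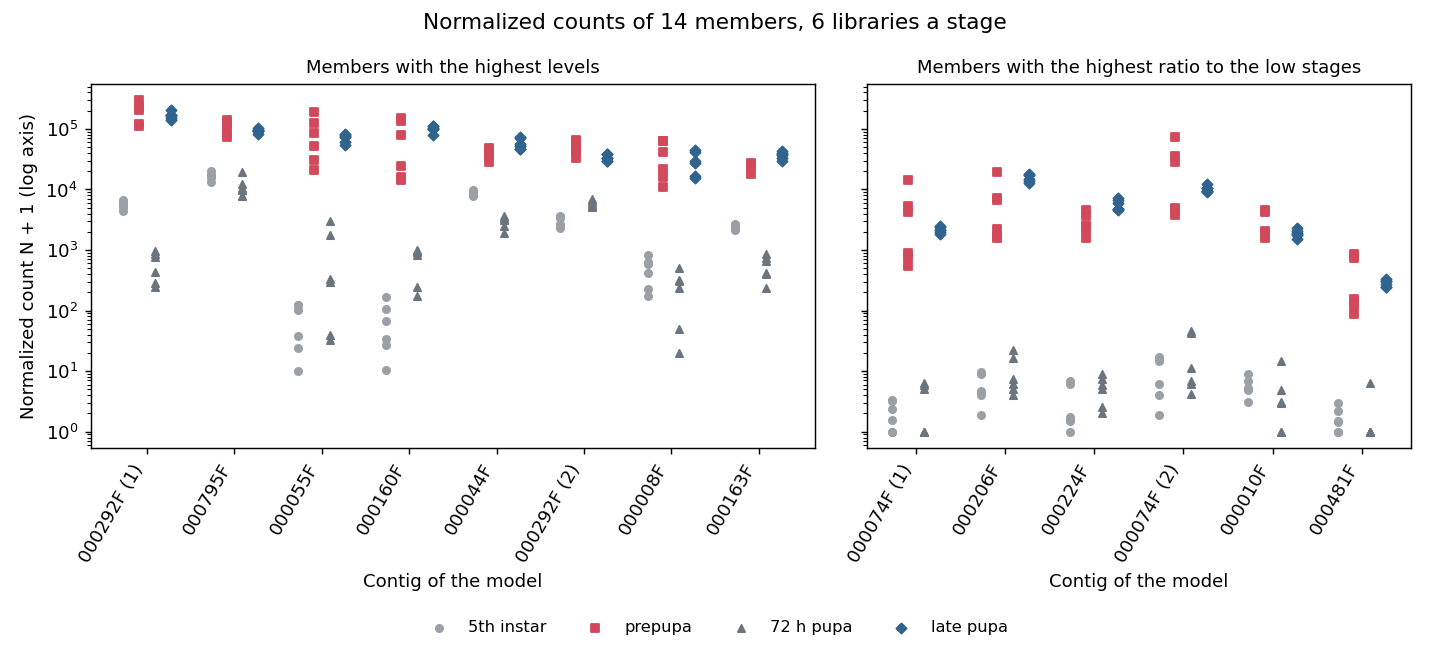
N + 1 on a log axis in each of the 6 libraries of a stage for the 8 members with the highest levels in both high stages (left) and the 6 with the highest ratio to the low stages (right), named by contig, with stages in order from 5th instar to late pupa. In the right panel the low stages stay below 50 while the high stages reach 73217.

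The plot of these 14 members shows where they differ: in the left panel some members kept high N at the low stages and others did not. Within the 242, prepupal means were above late pupal means in 138 members and below them in 104. The high means lay within 2-fold of each other in 154 members, while the prepupal mean was over 2-fold above in 61 and the late pupal mean in 27. The low stages were as mixed. The 5th instar mean was above the 72 h mean in 113 members, 53 of them by 2-fold or more, and the 72 h mean was the higher one in 129, 78 of them by 2-fold or more, with means below 1 set to 1.

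Taken over the 24 libraries, log2(N + 1) of a member correlated with the members' median profile with a Pearson r between 0.686 and 0.989, with a median of 0.935, and r was 0.8 or more in 236 members. All points share the libraries and the choice of members, so r describes how closely the members follow one course. Model 000006F:3121256-3137130 followed it most closely. It had 0.515, 2.78 and 5.05 at the 5th instar, 924, 1265 and 1744 in prepupae, 1.99, 4.69 and 9.44 at 72 h and 942, 1514 and 2047 in late pupae. Its 12 high libraries were all above 900 and its 12 low libraries all below 10.

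Most members met the same limits in each wing taken alone. The limits were met in both wings by 161 members, in forewings but not hindwings by 46, in hindwings but not forewings by 27, and in neither wing by 8. Some members are named below because their prepupal wing difference, or its change to late pupae, passed in edgeR without a replicate block. Of these, 000019F:1632292-1646365, 000055F:1618796-1629997, 000160F:521464-530252 and 000206F:52781-56031 met the limits in forewings only. Models 000001F:1670501-1671813 and 000074F:269088-281509 met them in hindwings only. Models 000292F:476570-478941 and 000078F:124923-128484 met them in neither wing, and 000041F:1551382-1563208, 000004F:4821249-4827049 and 000074F:245363-245728 in both. Where a member's 12 high libraries were ranked, the lowest was replicate 3 of the prepupal hindwing in 70 members, and this library was also the lowest in 10 of the 25 members whose high and low libraries overlapped.

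The limits cut through a continuous range. At the level limit of 50, the nearest members inside had a lower high mean of 53.3 (000059F:1417724-1457717) and 54.1 (000103F:1452679-1460413), and the nearest models outside had 48.1 (000005F:4594639-4595319) and 47.0 (000195F:483083-510210). At the ratio limit of 4, the values were 4.06 (000046F:623007-625036) and 4.07 (000103F:1452679-1460413) inside and 3.99 (000004F:599489-607291) and 3.93 (000046F:612560-619838) outside. At the limit of 4-fold between the high stages, they were 3.98 (000143F:529976-535920) and 3.97 (000004F:3335558-3348976) inside and 4.05 (000019F:1848940-1850145) and 4.10 (000087F:61488-76860) outside. Models just inside and just outside a limit thus had nearly equal values.

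In prepupae, 55 of the 242 members differed between the wings, 48 of them lower in the hindwing and 7 higher (edgeR quasi-likelihood test over all models, two-sided, Benjamini-Hochberg adjusted p below 0.05). This is 22.7% of the members, where 10.3% of all 13282 models tested passed, 6.05% lower and 4.26% higher in the hindwing. The median log2 fold change of hindwing over forewing was -0.24 over the members and 0.04 over all models tested. With DESeq2 size factors these medians were -0.31 and -0.02. The members' median was negative with both scalings, while the median over all models changed sign. The TMM factors were 0.557 to 0.612 in prepupal forewings and 0.792 to 0.979 in prepupal hindwings. No fit without such scaling was made, so how far the direction rests on it was not tested. The members' unscaled share of all counts, led by the members with the most reads, leaned the other way, with 10.03% in hindwings and 8.66% in forewings. Among 597 other models that met the level and ratio limits for the prepupal mean but were not members, 24.5% passed, 20.8% lower and 3.69% higher in the hindwing, and the members' share that was lower, 19.8%, was close to theirs. Among all models with a prepupal mean of at least 50, 14.7% passed, 8.89% lower and 5.86% higher. All 3 forewing libraries lay above all 3 hindwing libraries in 85 members and all 3 hindwing libraries above the forewing ones in 24, beside 17.0% and 13.0% of all models tested, and 54 of the 55 called members had wings without overlap.

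Libraries with the same replicate number in both wings deviated together, and a fit with the replicate number as a block called 130 members in prepupae, 97 lower and 33 higher in the hindwing, with 30.9% of all models tested called, 16.3% lower and 14.6% higher. That is 53.7% of the members, beside 62.0% of the 597 other prepupa-high models, of which 42.4% were lower and 19.6% higher. Without replicate 1 of the prepupal forewing the unblocked count was 35 members, given here without a share over all models.

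At the other stages no member passed the unblocked edgeR test. Counts by unadjusted p and by DESeq2 come without a share over all models, and nothing particular to the members is read from them. At the 5th instar edgeR called 0 members (0.0376% of all models tested), 14 had an unadjusted p below 0.05 and DESeq2 called 0. At 72 h edgeR called 0 members (0.00753% of all models), 14 had an unadjusted p below 0.05 and DESeq2 called 0. In late pupae edgeR called 0 members (0.0301% of all models), 11 had an unadjusted p below 0.05 and DESeq2 called 1, 000078F:124923-128484, with a log2 fold change of -5.01 ± 1.03 and a DESeq2 adjusted p of 0.00129. All 3 late pupal hindwing libraries lay above all 3 forewing libraries in 17 members and all 3 forewing libraries above the hindwing ones in 9, beside 3.17% and 3.58% of all models tested. Without replicate 3 of the 72 h hindwing, edgeR called 1 member at 72 h, 000160F:294993-295817, higher in the hindwing by 2.17 ± 0.47 on the log2 scale with an edgeR adjusted p of 0.0363.

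The 7 members higher in the prepupal hindwing had log2 fold changes between 1.14 and 3.01. Model 000001F:1670501-1671813 had 157, 185 and 205 in the 3 prepupal hindwings and 22.95, 28.2 and 18.8 in the 3 forewings. The wings did not overlap, and the log2 fold change was 3.01 ± 0.57 (SE) with an edgeR adjusted p of 0.00184. Its late pupal values were 116, 349 and 379 in hindwings and 629, 331 and 284 in forewings, which overlap. The forewing thus had late pupal values over 10 times its prepupal ones, while the hindwing values of the high stages lay closer together.

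Model 000041F:1551382-1563208 had 1870.0, 2439 and 1935 in prepupal hindwings and 509.5, 768 and 611 in forewings, without overlap, and a log2 fold change of 1.79 ± 0.27 with an edgeR adjusted p of 0.000314. Its late pupal values were 949, 741 and 652 in hindwings and 899, 856 and 661 in forewings, and these overlap. Model 000004F:4821249-4827049 had 33399, 33378 and 24174 in prepupal hindwings and 10459, 10736 and 8421 in forewings. Its log2 fold change was 1.69 ± 0.36 with an edgeR adjusted p of 0.00435. Its span overlaps that of another model, and since the use of strand in counting is not given in the sources used here, reads of both models may be mixed in its counts.

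The 48 members lower in the prepupal hindwing had log2 fold changes between -3.89 and -0.77. Model 000019F:1632292-1646365 had 111, 167 and 87.9 in prepupal hindwings and 1588, 1872 and 1778 in forewings. The forewing values were tight and far above the hindwing ones, with a log2 fold change of -3.77 ± 0.71 and an edgeR adjusted p of 0.00178. Late pupal values were 2218, 1749 and 2539 in hindwings and 2178, 1864 and 3418 in forewings, with overlap. At the 5th instar it had 22.2, 57.9 and 127 in hindwings and 41.8, 9.68 and 170.0 in forewings, so the prepupal hindwing values overlapped the larval ones.

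Model 000055F:1618796-1629997 had 10.5, 1.94 and 48.1 in prepupal hindwings and 103, 38.02 and 811 in forewings. In both wings replicate 3 was the high one and replicate 2 the low one, and the wings overlap. The log2 fold change was -3.89 ± 0.97 with an edgeR adjusted p of 0.0134, and it rested on single libraries. It was -1.69 with an adjusted p of 0.246 without replicate 3 of the prepupal forewing, -3.60 with 0.0628 without replicate 1 of the prepupal hindwing, -3.33 with 0.0574 without its replicate 2, and -5.71 with 0.00844 without its replicate 3. Fitted on the prepupal libraries alone it was -3.87 with an edgeR adjusted p of 0.129, and with the replicate block -3.87 ± 0.20 with 8.39e-08.

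Model 000292F:476570-478941 had 4.48, 8.73 and 17.8 in prepupal hindwings and 43.6, 90.8 and 341 in forewings, again with replicate 3 the high one in both wings. The log2 fold change was -3.83 ± 0.996 with an edgeR adjusted p of 0.0196. It was -2.62 with an adjusted p of 0.1205 without replicate 3 of the prepupal forewing, -3.50 with 0.0804 without replicate 1 of the prepupal hindwing, -3.71 with 0.0778 without its replicate 2, and -4.44 with 0.0452 without its replicate 3. This member had late pupal values of 52.3, 11.5 and 180.3 in hindwings and 24.4, 10.9 and 81.9 in forewings, with each hindwing library above the forewing library of the same number.

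**Figure D3:**
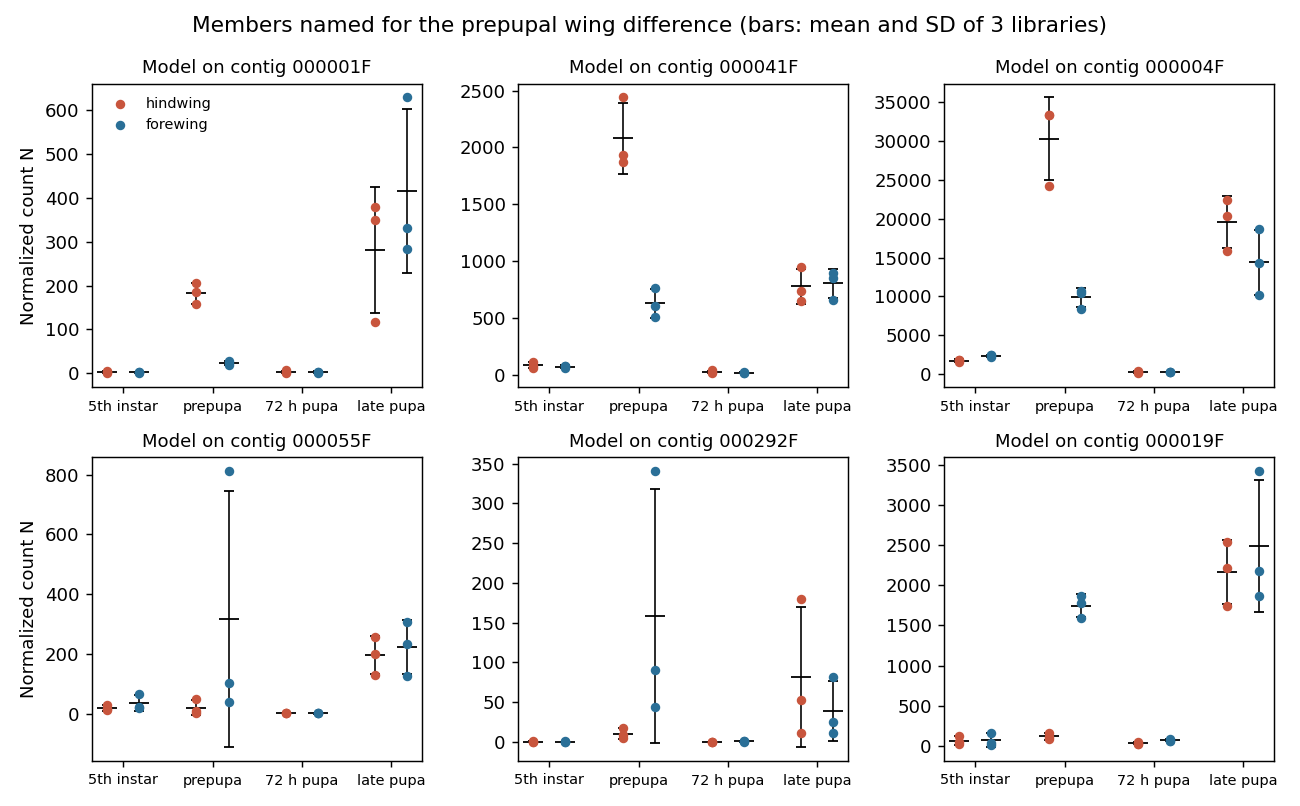
N in each library (points), with mean and SD of 3 libraries (bars), for the 3 members with the highest (top) and the 3 with the lowest (bottom) called prepupal log2 fold change, hindwing left of forewing at each stage, each panel on its own linear axis. The wings are apart in prepupae in the top panels and on contig 000019F, and the prepupal forewing bars of the models on contigs 000055F and 000292F are long because replicate 3 is far above the others.

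Several members already described for their level or ratio were among the 48. Model 000160F:521464-530252 had 24685, 15930.1 and 14342 in prepupal hindwings and 134738, 78753 and 148855 in forewings, with a log2 fold change of -2.65 ± 0.72 and an edgeR adjusted p of 0.0228. Its adjusted p was 0.0598 without replicate 1 and 0.0609 without replicate 3 of the prepupal forewing, and 0.0833 without replicate 2 and 0.102 without replicate 3 of the prepupal hindwing. Its late pupal values were 109729, 79255 and 99857 in hindwings and 104029, 99935 and 111416 in forewings, which overlap.

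Model 000074F:245363-245728 had 762, 536 and 877 in prepupal hindwings and 5306, 4278 and 14352 in forewings, and its log2 fold change was -3.40 ± 0.61 with an edgeR adjusted p of 0.00119, or -2.66 with 0.00582 without replicate 3 of the prepupal forewing. Its neighbour 000074F:269088-281509 had 4564, 3782 and 4881 in prepupal hindwings and 35801, 28797 and 73217 in forewings. For 000074F:269088-281509 the fitted log2 fold change was -3.32 ± 0.83 with an edgeR adjusted p of 0.013, and the adjusted p was 0.0514, 0.0605 and 0.0542 without replicate 1, 2 and 3 of the prepupal hindwing. In these models of contig 000074F, forewing replicate 3 was the highest library and no hindwing library reached the lowest forewing one.

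Model 000206F:52781-56031 had 1588, 1616 and 2256 in prepupal hindwings and 7257, 6686 and 19378 in forewings, with a log2 fold change of -2.54 ± 0.59 and an edgeR adjusted p of 0.00797, or -1.87 with 0.0528 without replicate 3 of the prepupal forewing. In late pupae its hindwing values were 17711, 17454 and 17358 and its forewing values 12839, 15097 and 13981, so there the hindwing libraries were the higher ones without overlap, but the difference of 0.32 ± 0.55 did not pass (edgeR adjusted p 1).

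Other named members missed the threshold in prepupae in the unblocked fit of all libraries and passed in other fits. Model 000008F:3321793-3326117 had 62977, 42013 and 63911 in prepupal hindwings and 16192, 10988 and 21934 in forewings. The log2 fold change was 1.85 ± 0.75 with an edgeR adjusted p of 0.135, and with the block 1.88 ± 0.21 with 3.06e-05. Its adjusted p was 0.016 fitted on the prepupal libraries alone, 0.0462 without replicate 3 of the 72 h forewing and 0.00574 without replicate 3 of both 72 h wings. The late pupal N was 41169.7, 16602 and 15423 in hindwings and 45171, 29813 and 27224 in forewings, with each hindwing library below the forewing library of its number. Model 000055F:1317914-1320466 had 51842, 30912 and 21158 in prepupal hindwings and 125406, 85731 and 189535 in forewings, with a log2 fold change of -1.88 ± 1.20 and an edgeR adjusted p of 0.407, and with the block -1.89 ± 0.57 with 0.0246. Fitted on the prepupal libraries alone, its adjusted p was 0.0387. Model 000224F:180711-188761, named for its ratio, had -0.58 ± 0.16 with the block (edgeR adjusted p 0.0171) and -0.61 ± 0.60 without it (adjusted p 0.646).

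Seen by wing, the members that differed in prepupae took unlike courses. The 48 that were lower in the prepupal hindwing had a median mean N of 158 in prepupal hindwings and 1267 in prepupal forewings, and of 728 in late pupal hindwings and 679 in late pupal forewings. Their prepupal mean over their late pupal mean had a median of 0.327 in hindwings and 1.64 in forewings. The prepupal mean was below the late pupal one in hindwings of 43 of the 48, and in forewings of 8. The 7 that were higher in the prepupal hindwing had a median mean N of 2081 in prepupal hindwings and 629 in prepupal forewings, and of 944 in late pupal hindwings and 871 in late pupal forewings. In all 55 the size of the fitted wing difference was smaller in late pupae than in prepupae, a comparison that the selection on the prepupal test favours. Late pupal log2 fold changes of the 48 ran from -0.72 to 1.03, with 25 below 0 and 23 above.

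**Figure D4:**
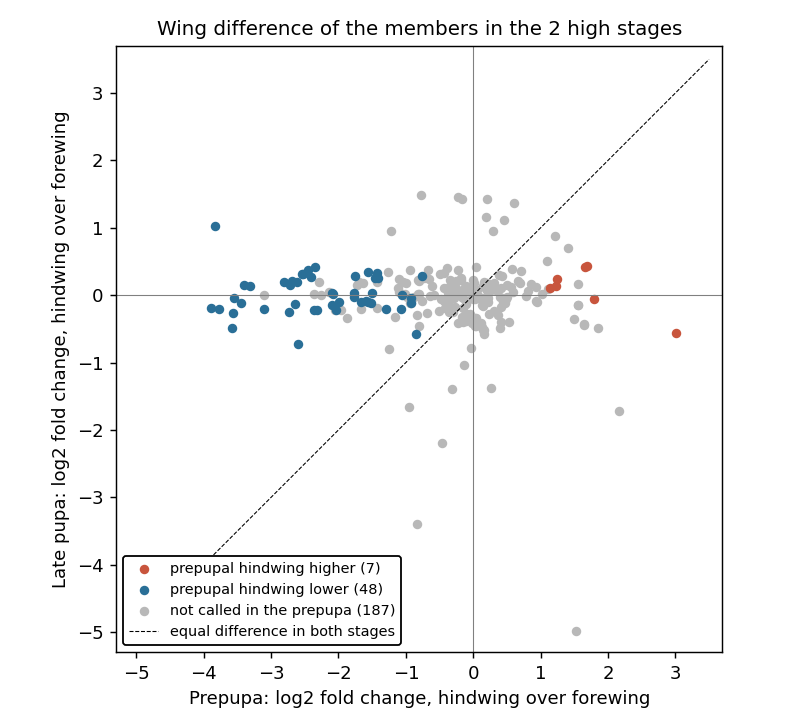
Fitted log2 fold change of hindwing over forewing in prepupae (horizontal) and late pupae (vertical) for the 242 members, with the 7 called higher, the 48 called lower and the 187 not called in prepupae in separate colours and the line of equal difference dashed. The called points spread along the horizontal axis from -3.89 to 3.01 and stay within -0.72 and 1.03 on the vertical one.

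The change of the wing difference between these stages was tested in the same fit. It passed in 24 members (9.92%, where 2.98% of all models tested passed), with the hindwing minus forewing log2 difference greater in late pupae in 21 and smaller in 3 (1.95% and 1.03% of all models). The share was not taken over the other prepupa-high models, so whether it is particular to the members is not known. Of the 21, all were among the 48 members lower in the prepupal hindwing, and of the 3, 2 were among the 7 higher ones. The change contains the prepupal difference with its sign reversed, which favours this match. The median change was 0.27 over the members and -0.05 over all models tested. With the replicate block 111 members passed, 86 greater and 25 smaller, where 18.6% of all models passed, 10.6% greater and the rest, 1063 models, smaller. The unblocked count was 12 without replicate 1 and also without replicate 2 of the late pupal forewing, 14 without replicate 1 of the prepupal forewing and without replicate 2 of the prepupal hindwing, and 15 without replicate 3 of the prepupal hindwing. These counts come without a share over all models.

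Model 000019F:1632292-1646365 had the greatest positive change among the members that passed, 3.57 ± 0.93 with an edgeR adjusted p of 0.0429. The call was lost in 16 of 24 fits that left out 1 library, with the value between 3.37 and 3.88 and the adjusted p up to 0.121. Model 000074F:245363-245728 changed by 3.54 ± 0.81 with an edgeR adjusted p of 0.021. Its late pupal values were 2363, 2006 and 2460.1 in hindwings and 2164, 1833 and 2159.7 in forewings, close together where the prepupal ones had been apart. This call was lost in 5 of the 24 fits. The adjusted p was 0.0551 without replicate 3 of the prepupal forewing, with a change of 2.80, and 0.0592 without replicate 2 of the prepupal hindwing. It was 0.0542, 0.0628 and 0.0513 without replicate 1, 2 and 3 of the late pupal forewing.

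Model 000078F:124923-128484 went the other way. It had 154, 48.5 and 53.4 in prepupal hindwings and 50.5, 14.7 and 29.1 in forewings, and each hindwing library was above the forewing library of its number. Late pupal N was 0, 12.6 and 8.01 in hindwings and 389, 205 and 74.9 in forewings, so that the hindwing was near 0 while every forewing library was above it. The change was -6.52 ± 1.33 with an edgeR adjusted p of 0.0109. It was -5.80 without replicate 1 of the prepupal hindwing, -5.84 without replicate 1 of the late pupal forewing and -7.31 without replicate 2 of the late pupal hindwing, and passed in each. The prepupal difference itself, 1.53 ± 0.88, did not pass (edgeR adjusted p 0.334), nor did the late pupal one, -4.98 ± 1.02 (adjusted p 0.154). The changes of 000001F:1670501-1671813, -3.58 ± 0.76 with an edgeR adjusted p of 0.0134, and of 000041F:1551382-1563208, -1.84 ± 0.38 with 0.0114, had the same sign.

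With the replicate block a few members also differed at stages where the unblocked fit called none. In late pupae 8 passed, or 3.31% of the members, 5 higher and 3 lower in the hindwing (0.459% of all models tested, 0.188% higher and 0.271% lower). Among 806 other models that met the level and ratio limits for the late pupal mean, 2.85% passed, 1.74% higher and 1.12% lower, so the members' share was close to theirs. Model 000070F:937086-939412 had 10.2, 548 and 94.8 in late pupal hindwings and 3033, 2565 and 1244 in forewings, with all hindwing libraries lower, and its blocked log2 fold change was -3.98 ± 0.68 with an edgeR adjusted p of 0.023. Its prepupal replicates disagreed in both wings, with 245, 77.6 and 2046 in hindwings and 248, 259 and 3887 in forewings. Model 000078F:124923-128484 also passed, at -4.84 ± 0.58 with 0.00614. Of the 5 higher ones, 000215F:106873-113782 had 1543, 1363 and 1181 in hindwings and 231, 620.2 and 638 in forewings, a blocked log2 fold change of 1.54 ± 0.28 with an edgeR adjusted p of 0.0307. The members 000070F:937086-939412 and 000215F:106873-113782 were singled out from these 8 after their values were seen.

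At the 5th instar 8 members passed with the block, or 3.31% of the members, 7 lower and 1 higher in the hindwing (0.986% of all models tested, 0.489% lower and 0.497% higher). Model 000008F:3321793-3326117 was among the lower ones, with 173, 419 and 229.9 in hindwings and 627, 813 and 595 in forewings and a blocked log2 fold change of -1.39 ± 0.21 (edgeR adjusted p 0.00846). Its blocked difference thus had opposite signs at the 5th instar and in prepupae. Model 000055F:1618796-1629997 was another, with 13.9, 14.96 and 30.6 in hindwings and 18.8, 23.97 and 65.8 in forewings and -0.82 ± 0.17 (edgeR adjusted p 0.042), the same sign as in prepupae.

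At 72 h 5 members passed with the block, or 2.07% of the members, below the 2.70% of all models tested (1.54% higher and 1.15% lower). Models 000010F:2468482-2473978, 000301F:143013-144955 and 000356F:269009-289470 were higher and 000090F:315516-317887 and 000616F:130876-140712 lower in the hindwing. Model 000090F:315516-317887 had 992, 1918 and 5977 in hindwings and 2289, 2841 and 8498 in forewings, with replicate 3 the high one in both wings, and a blocked log2 fold change of -0.78 ± 0.17 (edgeR adjusted p 0.0289). The other 4 rested on N below 160 in every 72 h library.

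The members lay on 150 contigs, 96 of which held 1 member. Contig 000019F held 9 of its 178 models, contig 000003F held 8, and contig 000214F held 5 of 32 models, or 15.6%. The median span of a member was 7968 bases, of all models 5258 and of other models with a mean of at least 50 in both high stages 7433, so the members' spans were near those of models with similar reads. The spans of 35 members (14.5%) overlapped another model, beside 19.6% of all models, and reads in such places may be shared. The sources used here do not say whether reads were counted over exons or over introns as well.

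In the order of positions 63 members (26.0%) had another member as a direct neighbour, and 2.09% of the other models had a member beside them. They formed 29 runs, of which 26 had 2 members, 2 had 3 and 1 had 5. In the 34 neighbouring pairs no spans overlapped, and the median gap was 10849 bases, beside 6280 bases between neighbouring models in general, with 15 pairs within 10000 bases. In 31 of the 34 pairs both members had the same sign of the prepupal wing difference. This share was not taken over neighbouring models in general, so whether it is unusual is not known. The sign was negative in 151 members and positive in 91, and pairs within the longer runs share models. Neighbours that share reads through near-identical copies could not be marked without sequence.

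The longest run was 5 models on contig 000019F between 1851507 and 1875694, a stretch of 24188 bases. Model 000019F:1851507-1852847 had 0, 2.21 and 15.4 at the 5th instar, 3018, 6151 and 7564 in prepupae, 1.26, 4.55 and 31.2 at 72 h and 1310.0, 2449 and 4781 in late pupae. Model 000019F:1874120-1875694, at the other end, had 0, 1.21 and 7.87 at the 5th instar, 2156, 3965 and 4708 in prepupae, 0, 1.82 and 21.6 at 72 h and 408, 1087 and 1610.4 in late pupae. The means of the 5 models ran from 1570 to 5629 in prepupae and from 524 to 2639 in late pupae, and each prepupal mean was 2.13 to 3.79 times the late pupal one. None of the 5 passed the test between the wings in prepupae or in late pupae, with or without the replicate block. In late pupae each hindwing library was below the forewing library of its number in all 5. The change of the wing difference from prepupae to late pupae passed with the block in 1 of them, 000019F:1867800-1868720, at -0.56 with an edgeR adjusted p of 0.0475, and not without it (-0.61, adjusted p 0.942).

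The 5 models shared their replicate pattern as well. In prepupae and in late pupae the libraries numbered 2 were the lowest of each wing, while at the 5th instar and at 72 h they were the highest. At 72 h, 000019F:1867800-1868720 had 0, 38.4 and 1.03 in hindwings and 0, 19.8 and 0.995 in forewings. In prepupae the same model had 4623, 1815 and 2861 in hindwings and 3617, 1987 and 3259 in forewings, and in late pupae 663, 558 and 1026 in hindwings and 963, 794 and 1355 in forewings. The low-stage values of these models thus came mostly from 1 replicate of each wing, and both wings with that number shared it. For 000019F:1857887-1858996 the late pupal values were 428, 255 and 672 in hindwings and 631, 337 and 970.4 in forewings, and for 000019F:1861198-1862540 they were 429.7, 259 and 610.4 in hindwings and 532, 347 and 964 in forewings.

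**Figure D5:**
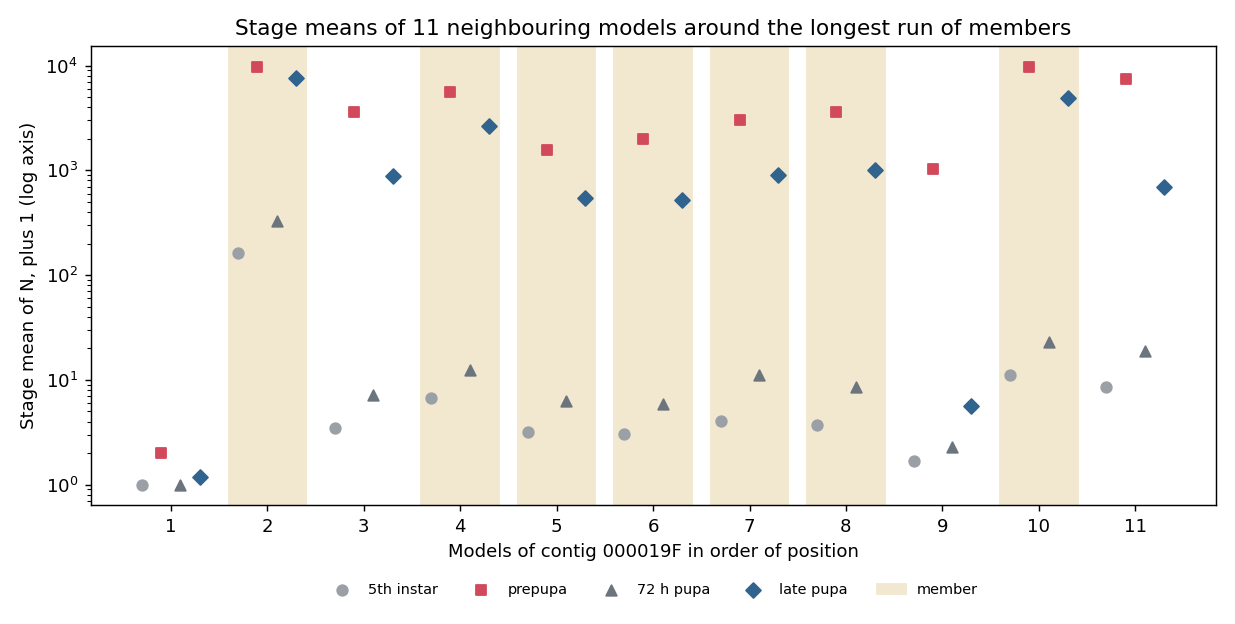
Stage mean of N, plus 1, on a log axis for 11 models in order of position on contig 000019F, with members shaded. The 5 neighbouring members share low means at the 5th instar and 72 h and high means in prepupae and late pupae.

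The plot of the run and its surroundings shows members and near misses side by side. Model 000019F:1848940-1850145, just before the run, had means of 3600 in prepupae and 890 in late pupae and missed the limit between the high stages at 4.05. Model 000019F:1876765-1877783, just after it, had 1035 in prepupae and 4.62 in late pupae. Beyond it, 000019F:1886262-1887119 was again a member, with 9733 in prepupae and 4930.0 in late pupae, and 000019F:1903673-1904748 had 7452 and 694 at the same stages. The low means of these 4 models were between 0.687 and 21.9. Before the run, member 000019F:1837687-1839284 had 9670.0 in prepupae and 7572 in late pupae, and its low means of 161 and 329 were above those of the run.

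The next longest run named, 3 models on contig 000113F over 112457 bases, was looser. Model 000113F:950544-961125 had 381, 557 and 872 in prepupae and 733, 893 and 1144 in late pupae, and its late pupal mean was the higher one. Model 000113F:1025151-1026062 had 438, 968 and 1473 in prepupae and 546, 725 and 864 in late pupae, and 000113F:1060408-1063000 had 159, 411 and 545 and 195, 244 and 310.4 at these stages, with the prepupal mean the higher one in both. For 000113F:1025151-1026062 and 000113F:1060408-1063000 the lowest prepupal library of each wing was replicate 3. Another run of 3, on contig 000214F, spanned 65834 bases.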

How the data were processed

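The authors deposited whole-number read counts per gene model, not normalized, for 24 wing libraries. TopHat, bedtools and DESeq2 are named in the submitters' processing notes, without version or role. For genome build, annotation and strand setting the entry is: not given in the sources used here. Count columns headed d3 were taken as the 72 h libraries. The 14 libraries for annotation were not used. Every count column was used. Members and lists were chosen with earlier results of these data known.

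Counts were tested with edgeR 4.0.16 (R 4.3.3) after TMM scaling and filterByExpr (minimum count 10, minimum total 15), which kept 13282 models and all 242 members. One quasi-likelihood fit held 8 group means. The common biological coefficient of variation was 38.7%. SE is the log2 fold change over the square root of F. Names follow a fixed rule: 8 members by level, 6 by ratio, the extremes among called members, the longest runs and the models nearest each limit. Alternatives were DESeq2 1.42.0 size factors and Wald test, no filter, the compared groups alone, each library left out, and the replicate block (stage by number). Numbers were taken to pair the wings because same-numbered libraries deviated together in all 12 pairs (r 0.587 to 0.802, unlike numbers -0.647 to -0.123). Deviations were taken from the mean of 3 libraries, so positive r for like numbers pulls r for unlike numbers below 0. The unblocked test was checked on simulated counts drawn independently for each library. That check does not cover the shared deviation of same-numbered libraries. Python 3.11.15 was used for N. Deposited counts limit precision to counting and library spread.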

Additional observations from a re-analysis of the deposited data

Results flagged for a closer look

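The wing difference changed between the prepupa and the late pupa, by an edgeR test of the change itself, in 24 members (9.92%, beside 2.98% of all models tested). Among those named, the change of the hindwing minus forewing log2 difference was -3.58 for 000001F:1670501-1671813, -1.84 for 000041F:1551382-1563208, 3.57 for 000019F:1632292-1646365, 3.54 for 000074F:245363-245728 and -6.52 for 000078F:124923-128484. When 1 library was left out, the call of 000019F:1632292-1646365 was lost in 16 of 24 fits and that of 000074F:245363-245728 in 5. With 3 libraries a group, single libraries were not tested for standing apart.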

How the results depend on the processing

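The count of members was 158 with a ratio limit of 8 and 154 with the high stages within 2-fold. It stayed between 214 and 275 with TMM scaling, level limits of 100 and 20, stage medians or either wing alone, and between 234 and 257 without any 1 library. The replicate block called 8 members at the 5th instar, 130 in prepupae, 5 at 72 h, 8 in late pupae and 111 for the change. The groups compared alone gave 38 for the change. The DESeq2 Wald test gave 1 in late pupae and 39 for the change. Leaving out replicate 3 of both 72 h wings, chosen for the low median deviation of the members, gave 1 at 72 h and 39 for the change. Leaving out each library gave 0 to 0 at the 5th instar, 35 to 62 in prepupae, 0 to 1 at 72 h, 0 to 0 in late pupae and 12 to 29 for the change. Apart from the replicate block, whose shares are given above, these counts of calls come without the share of all models called in the same fit. Whether the members moved more than all models did is therefore not known, and the cause of these moves was not tested. No named member reversed. With DESeq2 size factors and the DESeq2 Wald test each of the 17 named tests kept its side of the threshold, and without the filter 16 did. Members with N below 10 at the low stages rest on few reads, so their ratios and wing differences there are loosely held.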
